A study of Mus musculus with 36 samples.

Results

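The mouse mitochondrial chromosome carries 37 genes, and all 37 were identified in the 6 per-strain count tables by a symbol beginning with mt-, among the 37315 Ensembl genes of each table. They were 13 messenger RNAs, 2 ribosomal RNAs and 22 transfer RNAs, and all 37 passed the filter on low counts. RNA from the whole hippocampus had been sequenced from 36 mice, 18 females and 18 males, 3 of either sex per strain. The 6 strains, all inbred, were PWD/Ph, which is wild-derived, and the laboratory strains C57BL/6J, 129S1/SvImJ, DBA/2J, A/J and DBA/1J. Each library came from 1 animal, and the labels name no treatment. Females were 63 days old and males 62 days in DBA/1J, A/J and 129S1/SvImJ, and females 64 and males 63 days in C57BL/6J, so that sex and age cannot be told apart in these 4 strains. In PWD/Ph and DBA/2J all mice were 62 days old. PWD/Ph mice lived singly and the other strains in groups, so strain and housing cannot be told apart for PWD/Ph. Per the labels' protocols, messenger RNA was isolated before library preparation, and a spike-in mix that differed by sex was added, which was not used here. Total counts per library ran from 6493512 to 35232515, and the 3 with the lowest totals were all DBA/2J.

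The mitochondrial genome is a small circle that is transcribed from both strands into long precursor RNAs. Transfer RNAs lie between most of the other genes, and enzymes that cut at their ends release the messenger and ribosomal RNAs. The messengers encode core subunits of respiratory complexes I, III and IV and of the ATP synthase, while the polymerase, the processing enzymes and the ribosomal proteins are all made from nuclear genes. In whole tissue, fewer mitochondria or cells of a type and less RNA per cell cannot be told apart.

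Coordinates and sequences below are those of GENCODE M21 on GRCm38. The messengers span 204 to 1824 bases, the 2 ribosomal RNAs 955 bases (mt-Rnr1, the small subunit RNA, chrM:70-1024, plus strand) and 1582 bases (mt-Rnr2, the large subunit RNA, chrM:1094-2675, plus strand), and the transfer RNAs 59 to 75 bases. On the minus strand lie 1 messenger, mt-Nd6, and 8 transfer RNAs. The sources used here do not give the strand setting of the read counter, so for these 9 genes and for genes that overlap, reads from a gene and from the partner transcript cannot be told apart. Capitals mark the anticodon in the 5 transfer RNAs shown, which were those with the smallest p for sex in A/J (mt-Ti for isoleucine, chrM:3706-3774, and mt-Tl2 for leucine, chrM:11671-11741), with a PWD/Ph level below every other library (mt-Tw for tryptophan, chrM:4950-5016), with the smallest p among transfer RNAs in C57BL/6J (mt-Tg for glycine, chrM:9391-9458) and with the highest count (mt-Ts1 for serine, chrM:6870-6938, minus strand).
mt-Ti: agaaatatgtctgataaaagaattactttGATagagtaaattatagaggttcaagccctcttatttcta
mt-Tl2: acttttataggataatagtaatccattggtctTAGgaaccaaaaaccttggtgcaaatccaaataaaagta
mt-Tw: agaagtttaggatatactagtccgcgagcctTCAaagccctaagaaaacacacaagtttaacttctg
mt-Tg: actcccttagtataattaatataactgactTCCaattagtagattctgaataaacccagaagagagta
mt-Ts1: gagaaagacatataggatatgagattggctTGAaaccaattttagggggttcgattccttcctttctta

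Several nuclear genes resemble mitochondrial ones, and 9 such copies with counts were found by sequence. Gm13340 on chromosome 2 matched mt-Co1, the catalytic subunit of cytochrome c oxidase, over 1545 bases with 37 differences. A stretch of 100 bases is shown for both genes because adding the counts of Gm13340 to those of mt-Co1 changes the direction of mt-Co1 in PWD/Ph, with their 5 differences in capitals (mt-Co1, chrM:5762-5861, plus strand; Gm13340, chr2:22589114-22589213, minus strand).
mt-Co1: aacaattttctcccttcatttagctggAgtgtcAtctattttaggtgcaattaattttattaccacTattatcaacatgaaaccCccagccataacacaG
Gm13340: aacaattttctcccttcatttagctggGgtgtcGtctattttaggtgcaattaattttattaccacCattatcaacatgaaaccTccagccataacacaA
Gm10222 on chromosome 1 was identical to mt-Nd4l, a membrane subunit of complex I, over 294 bases. The deposited tables gave the pair nearly equal counts in every library, 11654 to 63523 for mt-Nd4l and 11649 to 63519 for Gm10222. The 2 counts differed by at most 1.46% of mt-Nd4l in any library, so the mt-Nd4l values are uncertain. A second pair shares bases within the chromosome: the genes of the 2 ATP synthase subunits, mt-Atp8 and mt-Atp6, overlap by 43 bases at chrM:7927-7969, capitals in the window that follows, and reads from this stretch cannot be assigned to 1 of them.
mt-Atp8 and mt-Atp6: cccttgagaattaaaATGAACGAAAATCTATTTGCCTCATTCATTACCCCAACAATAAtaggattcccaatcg

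Mitochondrially encoded RNA made up 6.29% to 13.6% of the counts of a library, with a median of 9.67%. The messengers held 5.13% to 9.77%, the ribosomal RNAs 1.10% to 4.07% and the transfer RNAs 0.0452% to 0.121%. By strain, the total ran from 9.18% to 13.6% in PWD/Ph, from 10.8% to 12.1% in DBA/2J and from 10.1% to 12.9% in C57BL/6J. It was lower in the other 3 strains, with 7.85% to 9.51% in 129S1/SvImJ, 6.61% to 9.72% in A/J and 6.29% to 9.62% in DBA/1J. The 3 ranges of the first group overlapped those of the second only through PWD/Ph female 3, at 9.18%.

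**Figure D1:**
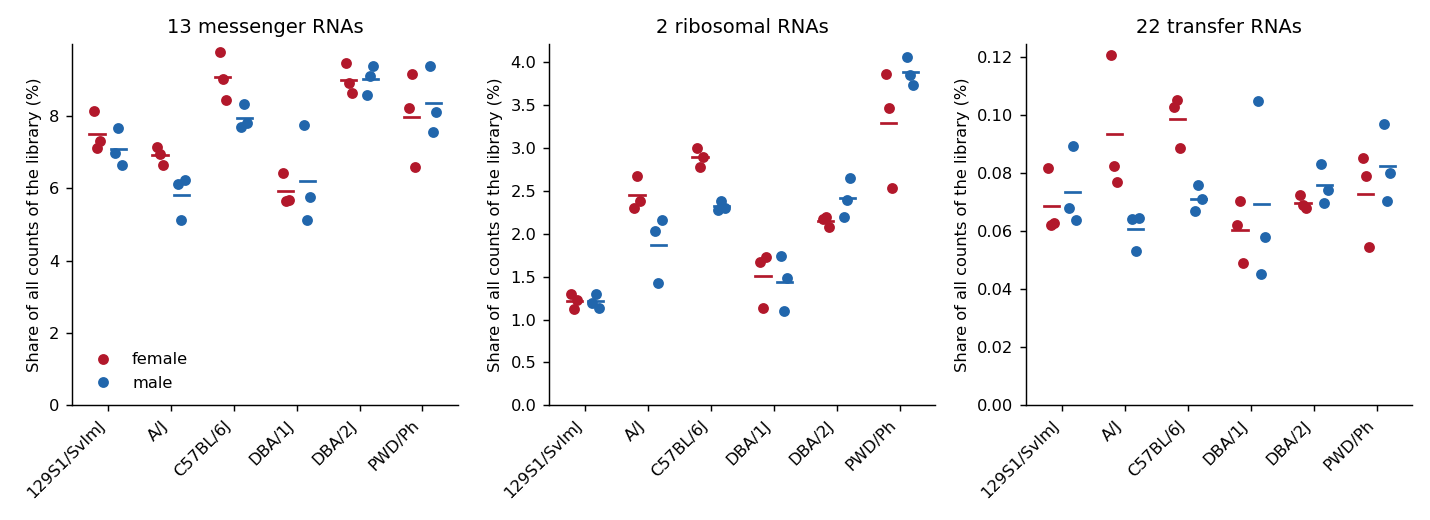
Percent of each library's counts in messenger, ribosomal and transfer RNA genes of the mitochondrial chromosome, by strain and sex, with a point per library and a line at the mean of 3. Ribosomal shares were lowest in DBA/1J and 129S1/SvImJ libraries (from 1.10%) and highest in PWD/Ph libraries (up to 4.07%), and female A/J and C57BL/6J points lay above the male points of the same strain in all 3 panels.

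Per kilobase of gene, the messengers differed widely in median level. The most abundant were mt-Atp6 (11339 CPM per kb, where CPM is the count as a part of the library total, after scaling between libraries), mt-Co1 (11243), mt-Co2 (10997), mt-Atp8 (9961) and mt-Co3 (9908). These 5 encode subunits of the ATP synthase and of cytochrome c oxidase. Next came mt-Cytb (6347 CPM per kb), the only complex III subunit encoded in the organelle, followed by mt-Nd1 (5612), mt-Nd4 (5324) and mt-Nd4l (5245). The lowest were 4 further complex I messengers, mt-Nd2 (3768), mt-Nd6 (2760), mt-Nd5 (2556) and mt-Nd3 (2247). Among ribosomal RNAs, mt-Rnr2 had a median of 10525 CPM per kb and mt-Rnr1 of 5589. These are transcripts left after an isolation of messenger RNA and are not total ribosomal RNA.

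Transfer RNAs were measured at far lower levels than the messengers per kilobase. Like the ribosomal values, these come after an isolation of messenger RNA and are not levels of total transfer RNA. Reads from a transfer RNA itself, from uncut precursors and from the ends of neighbouring genes cannot be told apart. Levels of transfer RNAs here and below are therefore counts on their genes. One stood apart: mt-Ts1, the minus-strand serine transfer RNA that overlaps the end of mt-Co1 by 3 bases, had a median of 4331 CPM per kb, and the other 21 had medians between 48.8 (mt-Tf) and 954 (mt-Te). It had 1589 to 11191 counts in a library and held 25.9% to 61.3% of all transfer RNA counts. The authors' FPKM values listed many transfer RNAs at 0 where counts were present, among them mt-Td in 31 libraries, mt-Tf and mt-Tk in 26 each and mt-Ts2 in 23. The FPKM column also listed mt-Rnr2 at 0 in PWD/Ph male 3, the library with the highest mt-Rnr2 count of all, 1058123. FPKM values were therefore used only as an alternative, with limma on log2(FPKM + 1).

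The strains differed in nearly all mitochondrially encoded genes. A test of any difference between strains over sex, with edgeR's quasi-likelihood test and Benjamini-Hochberg adjustment at 0.05, called 35 of the 37, in a background of 92% of the 19702 genes tested. The 2 not called were mt-Td (adjusted p = 0.155) and mt-Tp (adjusted p = 0.0649), the transfer RNAs for aspartate and proline. Since most genes on the table passed this test, the share of members called carries little, and the direction and size in each strain are given next. Each strain was set against the mean of the other 5, which makes the 6 comparisons dependent on one another. Background shares here and below come from the edgeR test on the counts without correction. Calls with a correction for GC content and length, or with FPKM values, are given without such shares.

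**Figure D2:**
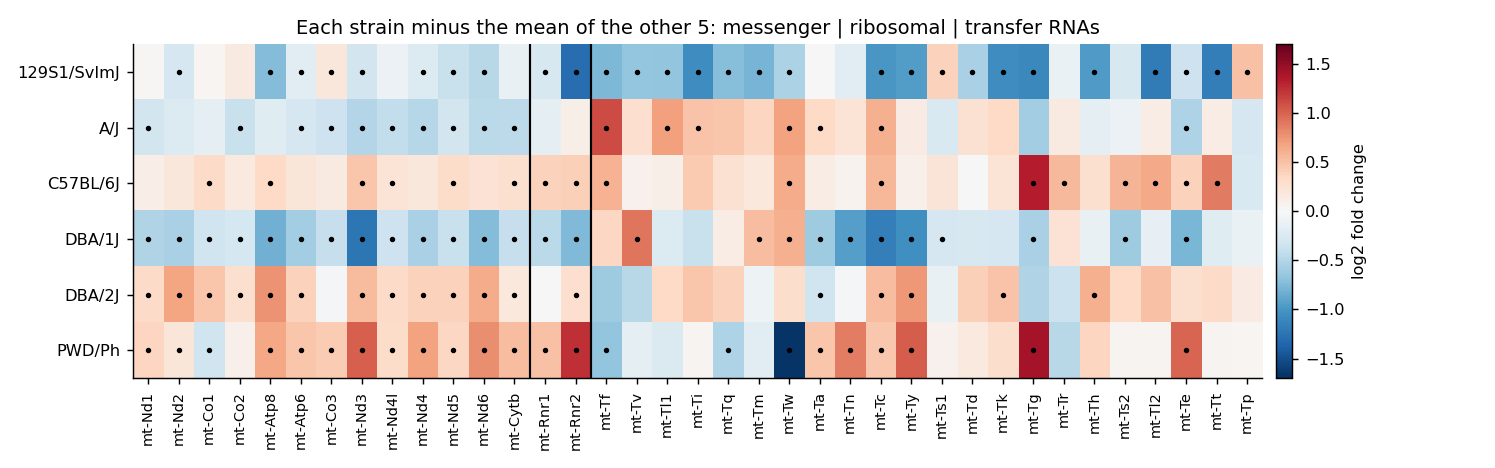
Log2 fold change of each of the 37 genes in each strain against the mean of the other 5 strains, grouped into messenger, ribosomal and transfer RNAs, with marks for adjusted p under 0.05 in edgeR's quasi-likelihood test. Messengers were lower throughout in DBA/1J and higher for 12 of 13 in DBA/2J. The log2 fold change of mt-Rnr2 ran from -1.29 in 129S1/SvImJ to 1.25 in PWD/Ph. With FPKM values the PWD/Ph value turned to -1.22 (limma adjusted p = 0.274), with a 0 listed for PWD/Ph male 3 among its values. With correction for GC content and length the 129S1/SvImJ messengers turned from mostly lower to mostly higher.

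The clearest strain difference lay in the ribosomal RNAs. In PWD/Ph, mt-Rnr2 had a lowest level of 20625 CPM, a median of 32793 and a highest of 36244, against 6631, 15918 and 23217 CPM in the other 5 strains. Apart from PWD/Ph female 3, every PWD/Ph library lay above every library of another strain. The level was 2.37-fold higher (log2 fold change 1.25 ± 0.08 SE, adjusted p = 3.59e-14), and mt-Rnr1 was 1.42-fold higher (0.50 ± 0.09, adjusted p = 9.37e-06). In 129S1/SvImJ, mt-Rnr2 had 6631, 7014 and 7854 CPM, against 7100, 17085 and 36244 CPM in the other 5 strains. The 129S1/SvImJ range met only the lowest libraries of DBA/1J. The log2 fold change was -1.29 ± 0.10 (adjusted p = 3.3e-12) for mt-Rnr2, against -0.27 ± 0.09 (adjusted p = 0.0118) for mt-Rnr1, whose call ended without 129S1/SvImJ male 3 (adjusted p = 0.067). After correction for GC content and length mt-Rnr2 stayed lower in 129S1/SvImJ (-0.72) and higher in PWD/Ph (0.72), while mt-Rnr1 turned to 0.26 in 129S1/SvImJ and was no longer called in PWD/Ph (0.02, adjusted p = 0.796). With FPKM values mt-Rnr2 was no longer called in 129S1/SvImJ (-0.69, limma adjusted p = 0.556), and in PWD/Ph it turned to -1.22 (limma adjusted p = 0.274), with the 0 listed for male 3 among its values.

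The 2 ribosomal RNAs lie next to each other on the same strand with only mt-Tv between them, yet their ratio differed by strain. PWD/Ph libraries had 3.90 to 4.73 counts of mt-Rnr2 for each count of mt-Rnr1, above all other libraries. The ratio was 3.11 to 3.45 in DBA/2J, 2.92 to 3.64 in A/J, 2.55 to 3.04 in C57BL/6J and 2.05 to 2.57 in DBA/1J. In 129S1/SvImJ it was 1.35 to 1.60, below all other libraries. This ratio within a library does not depend on the scaling between libraries, and it was given no test of its own. Whether reads that differ from GRCm38 were lost unequally between the 2 genes or the strains was not tested. Ribosomal counts per 100 messenger counts followed a similar order at the ends, with 37.8 to 50.9 in PWD/Ph and 15.7 to 17.2 in 129S1/SvImJ, and the 129S1/SvImJ range was again below that of every other strain.

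**Figure D3:**
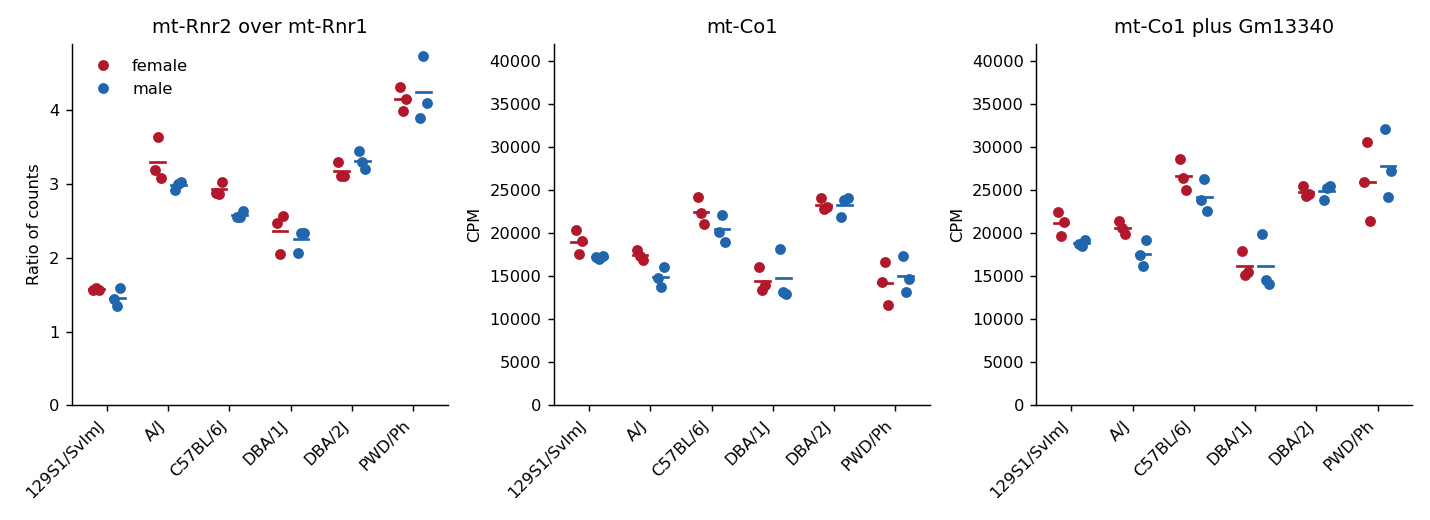
Left, counts of mt-Rnr2 over counts of mt-Rnr1 in each library, by strain and sex, with lines at the means of 3 libraries. Centre and right, mt-Co1 in CPM, alone and with the nuclear copy Gm13340 added: PWD/Ph averaged 14635 CPM alone and 26934 CPM with the copy, so the direction of mt-Co1 in PWD/Ph flips.

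In PWD/Ph the messengers were mostly higher than in the other strains. Of 13, 11 were higher and 1 lower, in a background of 34.4% of genes higher and 36% lower, with a median log2 fold change of 0.43 against -0.02 over all genes tested. With correction for GC content and length 6 were higher and 3 lower, with a median of 0.09, and with FPKM values 5 were higher and 1 lower, with a median of 0.22. The messenger with the smallest p was mt-Nd3, a complex I subunit: PWD/Ph libraries had 880, 1385 and 1658 CPM (lowest, median, highest), against 288, 682 and 1334 CPM in the other 5 strains. The ranges overlapped, and the log2 fold change was 1.01 ± 0.11 (adjusted p = 6.4e-10). Higher levels were also called for mt-Nd4 (0.69 ± 0.08, adjusted p = 3.37e-09), another complex I subunit, and for mt-Cytb (0.53 ± 0.07, adjusted p = 5.63e-08). The 1 messenger called lower was mt-Co1 (-0.33 ± 0.07, adjusted p = 5.81e-05), with 11651, 14494 and 17337 CPM in PWD/Ph, against 12936, 18118 and 24156 CPM in the other 5 strains. Its share of messenger counts was 16.4% to 17.6% in PWD/Ph, and 23.3% to 28.3% elsewhere, with no overlap.

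The nuclear copies moved with this result. Gm13340 averaged 12299 ± 1832 CPM in PWD/Ph (SD, n = 6), against strain averages of 1512 to 3973 CPM elsewhere, and its count came to 81.2% to 86.2% of the mt-Co1 count in PWD/Ph, against 5.46% to 19.1% in the other strains. All 9 copies together took 1.72% to 2.46% of counts in PWD/Ph, and 0.36% to 0.877% in the other 5 strains. Other copies rose too: Gm13339, which resembles mt-Nd2, had a log2 fold change of 4.15 ± 0.11 (adjusted p = 8.39e-25), and Gm11408, which resembles mt-Nd6, of 7.10 ± 0.09 (adjusted p = 3.46e-33). With each copy added to its mitochondrial partner, all 13 messengers were called higher in PWD/Ph and none lower, and mt-Co1 turned to a log2 fold change of 0.37 (adjusted p = 4.76e-06). That addition counts mt-Nd4l and Gm10222 together, and it was chosen after the values were seen. Which genome the PWD/Ph reads came from was not tested, nor was the loss of reads that differ from GRCm38.

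Transfer RNAs of PWD/Ph went both ways, with 6 of 22 higher and 3 lower, in a background of 34.4% of genes higher and 36% lower. With FPKM values 1 was higher and 6 were lower. The largest decrease was in mt-Tw, the transfer RNA for tryptophan. PWD/Ph libraries had 3.74, 4.68 and 5.82 CPM from 41 to 142 counts, against 5.96, 14.3 and 43.0 CPM in the other 5 strains. No library of another strain was as low, which held for no other member and strain. PWD/Ph is wild-derived, and whether its reads that differ from GRCm38 were lost at mt-Tw was not tested. The log2 fold change was -1.67 ± 0.25 (adjusted p = 5.08e-07), and -1.47 with the GC and length correction, but the call ended with FPKM values (-0.57, limma adjusted p = 0.101). The higher ones with the smallest p lay on the minus strand: mt-Tn for asparagine (0.86 ± 0.10, adjusted p = 1.35e-08), mt-Ty for tyrosine (1.03 ± 0.14, adjusted p = 8.53e-08) and mt-Te for glutamate (1.00 ± 0.14, adjusted p = 2.28e-07), which turned to -3.73 with FPKM values, where mt-Tn and mt-Ty were not called. Of the other lower calls, mt-Tf ended without PWD/Ph male 3 (adjusted p = 0.0691), and mt-Tq ended without any 1 of 4 PWD/Ph libraries (adjusted p from 0.0511 without female 1 to 0.124 without male 2, with females 3 and male 1 between).

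In DBA/1J all 13 messengers and both ribosomal RNAs were lower, in a background of 28.5% of genes higher and 24.9% lower. The median log2 fold change was -0.51 for messengers and -0.60 for ribosomal RNAs, against 0.03 over all genes. With correction for GC content and length, 10 messengers and both ribosomal RNAs were still lower and none was higher. For mt-Nd3, DBA/1J libraries had 288, 344 and 524 CPM, against 318, 864 and 1658 CPM in the other 5 strains. Only A/J and 129S1/SvImJ libraries reached into the DBA/1J range. This gene had a log2 fold change of -1.23 ± 0.12 (adjusted p = 2.82e-09), and mt-Atp8 one of -0.82 ± 0.12 (adjusted p = 7.68e-07). Transfer RNAs were split, with 8 of 22 lower and 3 higher, and with 6 higher and none lower with FPKM values. Those lower with the smallest p were mt-Tc for cysteine (-1.16 ± 0.13, adjusted p = 1.88e-08), mt-Tn (-0.94 ± 0.12, adjusted p = 1.65e-07) and mt-Ty (-1.04 ± 0.16, adjusted p = 3.3e-06), neighbours on the minus strand. With FPKM values none of these 3 was called by limma, and mt-Tn turned to 0.06. Those called higher, mt-Tv, mt-Tw and mt-Tm, all ended without DBA/1J male 1, with adjusted p of 0.311, 0.548 and 0.292, and mt-Tw and mt-Tm also ended without DBA/1J female 2 (0.0515 and 0.0734).

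DBA/2J, which shares its origin with DBA/1J as a strain, went the other way from DBA/1J for messengers. Of 13, 12 were higher and none lower, in a background of 25.1% of genes higher and 24.4% lower. Their median log2 fold change was 0.39, and 0.38 with the GC and length correction, while with FPKM values 5 were higher and none lower, with a median of 0.19. For mt-Co1, DBA/2J libraries had 21845, 23481 and 24131 CPM, against 11651, 17094 and 24156 CPM in the other 5 strains. Only C57BL/6J libraries reached the DBA/2J range. The log2 fold change was 0.47 ± 0.06 (adjusted p = 3.67e-07), and it was 0.77 ± 0.10 for mt-Atp8 (adjusted p = 3.12e-07) and 0.67 ± 0.09 for mt-Nd2 (adjusted p = 3.93e-07). The 1 messenger not called was mt-Co3, which made up 8% to 8.93% of messenger counts in DBA/2J, below every library of another strain. Among transfer RNAs 4 were higher and 1 lower, and 15 were higher and 1 lower with the GC and length correction. With FPKM values 12 were lower and none higher. FPKM listed many transfer RNAs at 0 where counts were present, so that reversal cannot settle their direction. The higher call of mt-Rnr2 (0.29 ± 0.09, adjusted p = 0.00798) ended without DBA/2J male 3 (adjusted p = 0.0619), without the 3 DBA/2J libraries of lowest total (0.111), with the GC and length correction (0.14) and with FPKM values (limma, 0.643).

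In 129S1/SvImJ, 7 of 13 messengers were lower and 1 higher, in a background of 35.3% of genes higher and 32.1% lower. This direction depended on the processing: with correction for GC content and length 10 messengers were higher and none lower, and the median log2 fold change, -0.19 without the correction, was 0.32 with it. The share of all genes called with the correction is not given here. With FPKM values 2 messengers were higher and 3 lower. The lower call with the smallest p was mt-Atp8 (-0.73 ± 0.11, adjusted p = 1.5e-06), at 0.09 with that correction. Libraries of 129S1/SvImJ had 1143, 1266 and 1363 CPM of it, against 887, 2128 and 3411 CPM in the other 5 strains. The 129S1/SvImJ libraries sat close together, inside the lower part of the range of the others. The 1 higher call, mt-Co3 (0.19 ± 0.07, adjusted p = 0.0153), ended without female 1 (adjusted p = 0.0924) or male 2 (adjusted p = 0.0508). Among transfer RNAs 16 of 22 were lower and 2 higher, with the correction 3 were lower and 8 higher, and with FPKM values 10 were higher and none lower. Without either change, the higher ones were mt-Ts1 (0.39 ± 0.10, adjusted p = 0.00151) and mt-Tp, whose call ended without female 1 (adjusted p = 0.0574). In this strain mt-Ts1 held 52.1% to 61.3% of transfer RNA counts.

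In A/J, 10 of 13 messengers were lower and none higher, in a background of 18.9% of genes higher and 14.4% lower, with a median log2 fold change of -0.35 and of -0.43 with the GC and length correction, while with FPKM values 3 were lower and none higher, with a median of -0.20. The smallest p belonged to mt-Cytb, with 4174, 5555 and 6249 CPM in A/J, against 4455, 7373 and 11061 CPM in the other 5 strains. A/J libraries overlapped only the lower part of that range (log2 fold change -0.45 ± 0.07, adjusted p = 2.05e-05). Neither ribosomal RNA was called by edgeR or DESeq2, and neither had an unadjusted p under 0.05. Transfer RNAs were called higher for 6 of 22 and lower for 1, but lower for 6 and higher for 1 with the GC and length correction. The highest was mt-Tf for phenylalanine (1.11 ± 0.20, adjusted p = 4.78e-05), with 95 to 524 counts in A/J, and with FPKM values it was not called (0.03, limma adjusted p = 0.904).

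In C57BL/6J, 6 messengers, both ribosomal RNAs and 9 transfer RNAs were higher and none of the 37 was lower, in a background of 21.1% of genes higher and 13.6% lower. With correction for GC content and length 1 messenger was higher and none lower, with a messenger median of -0.08, and among transfer RNAs 8 were lower and 1 higher. The fewest members, 11, were called without C57BL/6J female 2. For mt-Tg, C57BL/6J libraries had 13.7, 18.8 and 39.1 CPM, against 2.56, 7.44 and 28.5 CPM in the other 5 strains. Its level was high in PWD/Ph as well, at 22.6 ± 4.6 CPM, while the strain means of the other 4 lay between 5.34 and 8.55 CPM. The log2 fold change in C57BL/6J was 1.33 ± 0.20 (adjusted p = 4.42e-06), but with log2(FPKM + 1) it turned to -0.54 and with log2(FPKM + 0.1) to -0.88, neither called by limma (adjusted p = 0.327 and 0.428).

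Sex made no difference that was called when averaged over the 6 strains. None of the 37 passed by edgeR's quasi-likelihood test or by DESeq2, in a background of 0.112% of genes higher and 0.127% lower in females. At an unadjusted p under 0.05 there were 5, and the share of all genes at that threshold is not given here. Females were on the higher side for 34 of the 37, with median log2 fold changes (female minus male) of 0.09 for messengers, 0.06 for ribosomal RNAs and 0.19 for transfer RNAs. The smallest adjusted p was 0.218, for mt-Ts2, a second serine transfer RNA.

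**Figure D4:**
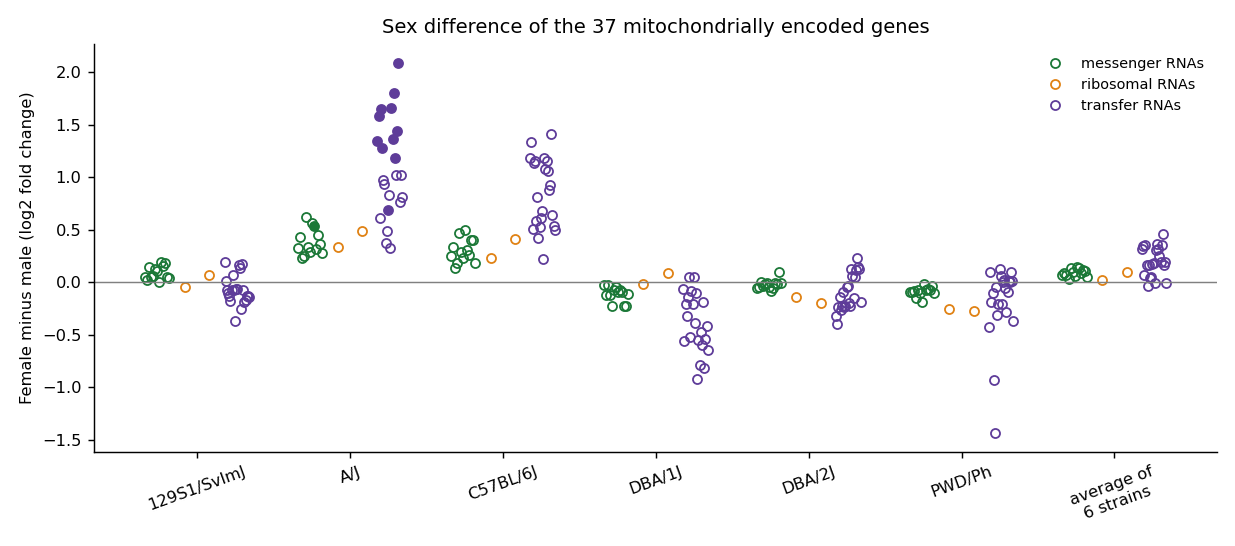
Log2 fold change, female minus male, of each of the 37 genes within each strain and averaged over strains, by class of RNA. Filled points have an adjusted p under 0.05 in edgeR's quasi-likelihood test, and all 12 of them are in A/J; the median for transfer RNAs was 1.02 in A/J, 0.84 in C57BL/6J and -0.40 in DBA/1J, and with FPKM values the A/J median was -0.02.

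Within A/J, 12 of the 37 were higher in females and none lower, in a background of 1.26% of genes higher and 4.06% lower. They were 11 transfer RNAs and mt-Nd4l. With FPKM values 2 messengers and none of the transfer RNAs were called, the transfer RNA median was -0.02, and mt-Ts2, mt-Tg, mt-Tf and mt-Tq turned to the male side. The median log2 fold change was 1.02 for transfer RNAs, 0.34 for messengers and 0.41 for ribosomal RNAs, against 0.01 over all genes tested. A/J females had 1183, 469 and 522 counts of mt-Ti (43.3, 16.3 and 18.1 CPM), against 194, 164 and 213 counts in A/J males (8.85, 6.18 and 9.85 CPM). For mt-Tl2 females had 970, 364 and 381 counts, against 114, 87 and 130 in males. In both, the sexes did not overlap and female 1 was far above the other 2 females. Log2 fold changes were 1.65 ± 0.35 for mt-Ti (adjusted p = 0.00597) and 2.09 ± 0.46 for mt-Tl2 (adjusted p = 0.00718). Next by p came mt-Ts2 (1.44 ± 0.32, adjusted p = 0.0081), mt-Tg (1.81 ± 0.43, adjusted p = 0.0125) and mt-Tk for lysine (1.36 ± 0.33, adjusted p = 0.0135). For mt-Nd4l, females had 1507, 1415 and 1401 CPM, against 1003, 860 and 1130 CPM in males (0.53 ± 0.15, adjusted p = 0.0275). Its nuclear copy Gm10222 gave the same counts to within the difference stated above, and so the same result (0.53, adjusted p = 0.0295).

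These A/J calls rested on single libraries. Transfer RNAs in A/J female 1 had a median of 2.05 times the mean of the other 2 females, with a range of 1.10 to 2.80, against 1.08 for messengers and 0.95 for ribosomal RNAs. Without A/J female 1 none of the 37 was called (adjusted p = 0.108 for mt-Ti and 0.106 for mt-Tl2, with log2 fold changes of 1.06 and 1.43). Without A/J male 1 or male 2 there were 3 calls each and without male 3 there were 6. With all 6 A/J libraries, every female lay above every male for all 22 transfer RNAs, both ribosomal RNAs and all 13 messengers. How many of all genes were separated in this way was not counted. By strand, 9 of 14 plus-strand and 2 of 8 minus-strand transfer RNAs were called, with medians of 1.35 and 0.72. Summed over the 22, A/J females had 1230, 817 and 764 CPM, against 614, 503 and 625 CPM in A/J males.

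C57BL/6J values had the same layout without a call. None of the 37 passed by edgeR's quasi-likelihood test or by DESeq2, in a background of 0.0863% of genes higher and 0.193% lower in females. At an unadjusted p under 0.05 there were 21, and the share of all genes at that threshold is not given here. The smallest adjusted p was 0.168. All 37 had positive log2 fold changes, with medians of 0.84 for transfer RNAs, 0.28 for messengers and 0.32 for ribosomal RNAs. For mt-Tl2, C57BL/6J females had 509, 610 and 375 counts, against 144, 174 and 105 in C57BL/6J males. Every female lay above every male for 21 of 22 transfer RNAs, both ribosomal RNAs and 8 of 13 messengers. The share of all genes separated in this way was not counted. For mt-Rnr2 the levels were 23217, 21131 and 21735 CPM in females, against 16179, 17056 and 16453 CPM in males, again with no overlap. When the 6 C57BL/6J libraries were fitted alone, 25 of the 37 were called. The background shares above belong to the fit of all 36 libraries, so this count has no background beside it.

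**Figure D5:**
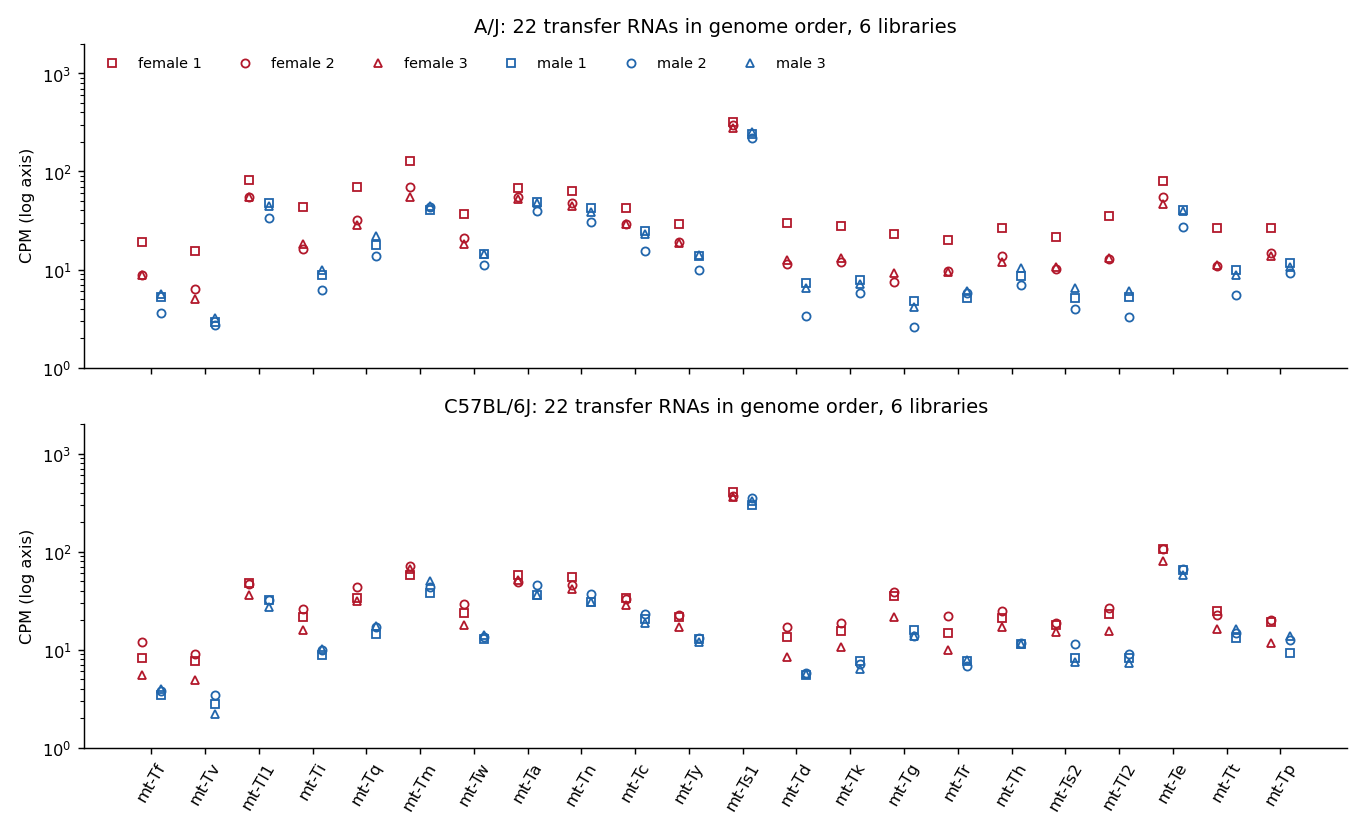
Level of the 22 transfer RNAs in genome order in the 6 A/J libraries (top) and the 6 C57BL/6J libraries (bottom), in CPM on a log axis, with a symbol per animal. Females lay above males for 22 of 22 transfer RNAs in A/J and 21 of 22 in C57BL/6J, and the A/J female 1 squares were the highest in nearly every column. The share of all genes with such a separation was not counted.

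The other 4 strains gave no sex calls by edgeR's quasi-likelihood test. The backgrounds that follow are at the adjusted threshold only. In 129S1/SvImJ none was called by either tool and none had an unadjusted p under 0.05, in a background of 0.0558% of genes higher and 0.0457% lower. DBA/1J had none by either tool and 1 at an unadjusted p under 0.05 (background 0.0203% higher, 0.0406% lower), with 34 of 37 on the male side. DBA/1J male 1 stood out there: transfer RNAs summed to 591, 659 and 462 CPM in DBA/1J females, against 1029, 416 and 551 CPM in males. DBA/2J had none by either tool and none at an unadjusted p under 0.05 (background 0.0305% higher, 0.0203% lower). PWD/Ph had none by edgeR, 1 by DESeq2 and 2 at an unadjusted p under 0.05 (background 0.0914% higher, 0.0305% lower). The 2 were the neighbouring transfer RNAs mt-Tm for methionine and mt-Tq for glutamine. PWD/Ph females had 260, 514 and 236 counts of mt-Tm, against 706, 470 and 4411 in PWD/Ph males. For mt-Tq they were 118, 206 and 102 counts in females, against 256, 179 and 1126 in males. In both genes male 3, the deepest library, lay far above the other 5 also in CPM, at 135 CPM of mt-Tm against 21.5 to 42.3.

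Whether the sex difference depends on strain was tested directly. The interaction of sex and strain called none of the 37 by edgeR's quasi-likelihood test, in a background of 1.64%. At an unadjusted p under 0.05 there were 22, and the share of all genes at that threshold is not given here. The smallest adjusted p was 0.0503, for mt-Tl2, and DESeq2 called 10. Leaving out 1 library at a time gave between 0 and 17 calls, the most without DBA/1J male 2. An A/J difference that was called and differences elsewhere that were not are therefore not shown to differ in size by the edgeR test.

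Nuclear genes that act on mitochondrial RNA were counted in lists by role. Averaged over strains, none was called for sex in any list by edgeR's quasi-likelihood test or by DESeq2, and 0 to 3 genes of a list had an unadjusted p under 0.05. Within A/J, in a background of 1.26% of all genes higher and 4.06% lower in females, 2 of 20 genes that modify transfer and ribosomal RNA were lower in females, Mettl17 (-0.62 ± 0.14, adjusted p = 0.00732) and Trit1 (-0.38 ± 0.11, adjusted p = 0.0424), while DESeq2 called 4. None was called by edgeR among 10 for transcription, 23 for RNA processing, 12 for DNA maintenance and 19 aminoacyl-tRNA synthetases. At an unadjusted p under 0.05 these held 2, 2, 4 and 1 genes, and DESeq2 called 0, 1, 2 and 0. Regulators of biogenesis had 1 of 12 higher, Yy1, and 1 lower, Pprc1. Between strains more of them were called, against backgrounds that in PWD/Ph were 34.4% of genes higher and 36% lower. In PWD/Ph 7 of 10 transcription genes were higher and 1 lower, with Mterf3, a termination factor family member that represses transcription initiation, at a log2 fold change of 1.31 ± 0.07 (adjusted p = 9.89e-17). The 1 lower was Polrmt, the mitochondrial RNA polymerase (-0.77 ± 0.10, adjusted p = 4.31e-08).

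In DBA/1J, in a background of 28.5% of genes higher and 24.9% lower, 14 of 23 processing genes were lower and 4 higher. Of 10 transcription genes, 7 were lower and 1 higher. Polrmt was the 1 higher (0.52 ± 0.09, adjusted p = 9.02e-06), and Mtpap, the poly(A) polymerase of the organelle, was among the lower (-0.38 ± 0.06, adjusted p = 1.43e-06). DBA/2J had 4 transcription genes higher and 1 lower, and 11 processing genes higher and 5 lower. The background in DBA/2J was 25.1% of genes higher and 24.4% lower. In 129S1/SvImJ, 8 of 12 regulators of biogenesis were lower and 3 higher, with Ppargc1a, a coactivator of nuclear genes for mitochondrial proteins, at -0.49 ± 0.05 (adjusted p = 3.24e-09). There 11 of 20 modification genes and 10 of 19 synthetases were higher, and 2 and 3 were lower. The background in 129S1/SvImJ was 35.3% of genes higher and 32.1% lower. A/J and C57BL/6J had 1 transcription gene each called, both lower, in backgrounds of 14.4% and 13.6% of genes lower. No list was given a test, and no list is tied to the mitochondrial values by these counts. Values of the nuclear genes in these lists are not given with the GC and length correction or with FPKM values.

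Markers of other cell types differed between strains as well. Summed markers of hippocampal neurons were 6537 to 9932 CPM across libraries, with 8997 to 9932 CPM in 129S1/SvImJ and at most 8721 CPM in the other strains. In 129S1/SvImJ 4 of these 8 markers were called higher and 2 lower, in a background of 35.3% of genes higher and 32.1% lower. Choroid plexus markers, which come from tissue next to the hippocampus, summed to 2426 to 3956 CPM in C57BL/6J females, against 657 to 2701 CPM in C57BL/6J males, and to 148 to 2860 CPM in A/J females, against 154 to 1984 CPM in A/J males. None of 11 was called for sex in either strain by edgeR or DESeq2, and none had an unadjusted p under 0.05. In DBA/2J and 129S1/SvImJ none was called by either tool, but 10 and 5 of 11 had an unadjusted p under 0.05, with no share of all genes at that threshold given. Their median log2 fold changes, female minus male, were 2.41 in DBA/2J and -2.04 in 129S1/SvImJ. Between strains 7 of 11 were higher in C57BL/6J, where 21.1% of all genes were higher, and 7 of 11 lower in 129S1/SvImJ, where 32.1% were lower. Oligodendrocyte markers were higher in C57BL/6J for 9 of 9, with a median log2 fold change of 0.49. In 129S1/SvImJ 7 of 9 were higher and 1 lower, with a median of 0.48, in a background of 35.3% higher. In PWD/Ph 7 of 9 were lower and 1 higher, in a background of 36% lower. The part of these cells in the mitochondrial values was not tested.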

How the data were processed

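The members, the lists of nuclear genes and the tests were chosen with earlier results of these data known. The authors deposited 1 table per strain, which per the file headers gives a raw count and an FPKM value for each gene and library. Deposited counts are unscaled whole numbers, while the authors' FPKM values are scaled by gene length and library total. Cufflinks 2.1.1, TopHat2 2.0.13, Trimmomatic 0.32, DESeq2 1.8.1 and SAMtools are named in the submitters' processing notes, as is GRCm38 (mm10). How reads were counted, with which strand setting and with what treatment of reads that match several places, the sources used here do not give, and the last bears on genes with nuclear copies.

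Of 37315 genes, 35449 were matched to a symbol in GENCODE M21. Genes with low counts were left out with filterByExpr of edgeR (minimum count 10, minimum total 15), which kept 19702. Counts per library totalled 6493512 to 35232515. Genes with a blank FPKM (12) were left out of the limma fits. All 36 libraries entered 1 fit of the 12 group means in edgeR 4.0.16 (R 4.3.3), with trimmed mean of M values scaling, the quasi-likelihood F test, 24 residual degrees of freedom and Benjamini-Hochberg adjustment at 0.05 over all genes tested. Approximate SEs were taken as the size of a log2 fold change over the square root of its F statistic. CPM was computed from the counts with the same scaling. Shares of counts, sums and ratios are descriptive and carry no test. Background shares of genes are at the adjusted threshold, and none is given for an unadjusted p.

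Within a comparison, values are given for the members called with the smallest p in a class and direction, up to 8 for sex and 3 for strain. The rule first written allowed 8 in both; the lower limit for strain was set after seeing that many values change sign under some alternatives, so the counts over every called member are given with the alternatives. From each nuclear list up to 4 were named. Nuclear copies were found with blastn 2.17.0+ (identity of at least 90% over at least 100 bases). Alternatives were DESeq2 size factors, no filter, the DESeq2 1.42.0 test, limma 3.58.1 on log2(FPKM + 1) and log2(FPKM + 0.1), a replicate block, each strain's own 6 libraries, 1 strain or 1 library left out, and 3 added after seeing the data: a loess correction for GC content and length (span 0.5, 19147 genes with a value, all 37 members among them), copies added to their partners, and the 3 shallow DBA/2J libraries left out. The fit was tested on simulated counts. Replicates are separate animals, and no pair of them agreed within sampling noise.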

Additional observations from a re-analysis of the deposited data

How the results depend on the processing

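Counts are of the 37 members called, given without the shares of all genes called under each alternative. Over all 141 called values with a direction, the sign changed in 41 with limma on log2(FPKM + 1), 40 with log2(FPKM + 0.1), 23 with the GC and length correction and 1 with nuclear copies added. It changed in 0 with DESeq2 size factors, no filter, the DESeq2 test, the replicate block or the 3 shallow libraries left out. At the limit of 8 named members first written these were 31, 29, 17 and 1 of 115, and at the lower limit used for strain 16, 16, 5 and 1 of 66. The cause was not tested.

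For sex averaged over strains (0 called), 2 were called without strain DBA/1J and 0 to 1 with 1 library left out. For sex within A/J (12 called), no filter gave 23, the 6 A/J libraries alone 20, FPKM + 1 gave 2, FPKM + 0.1 gave 1, and leaving out 1 library 0 to 18, with 0 without A/J female 1. For C57BL/6J (0), no filter gave 5 and its 6 libraries alone 25. For PWD/Ph (0), no filter and the DESeq2 test gave 1 each, and leaving out 1 library 0 to 1. The sex by strain interaction (0) gave 20 with no filter, 10 with DESeq2, 4 with the GC and length correction and 0 to 17 with 1 library left out.

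Against the other 5 strains, FPKM + 1 and FPKM + 0.1 called 15 and 14 in 129S1/SvImJ (28), 7 and 7 in A/J (17), 11 and 11 in C57BL/6J (17), and 14 and 14 in PWD/Ph (23). The GC and length correction gave 11 in C57BL/6J and 28 in DBA/2J (18). Leaving out 1 library gave 21 to 29 in 129S1/SvImJ, 15 to 24 in A/J, 11 to 21 in C57BL/6J, 24 to 31 in DBA/1J (26), 15 to 27 in DBA/2J and 21 to 26 in PWD/Ph, and 35 to 37 for the strain effect (35).

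The named log2 fold changes that changed sign follow, with FPKM + 1 before FPKM + 0.1. Within A/J for sex they were -0.031 and -0.077 for mt-Ts2, -0.10 and -0.19 for mt-Tg, -0.24 and -0.50 for mt-Tf, and -0.013 and -0.027 for mt-Tq. In 129S1/SvImJ they were 0.012 and 0.030 for mt-Tc, 1.41 and 1.62 for mt-Ty, and 0.19 and 0.76 for mt-Tk. In A/J mt-Te had 0.025 and 0.20. In C57BL/6J mt-Tg had -0.54 and -0.88, and mt-Tc -0.20 and -0.21. In DBA/1J mt-Tn had 0.060 and 0.087. In DBA/2J mt-Ty had -0.68 and -0.83, mt-Tc -1.02 and -1.15, and mt-Th -2.62 and -5.24. In PWD/Ph mt-Te had -3.73 and -4.70, and mt-Rnr2 -1.22 and -1.77, with the FPKM of 0 for male 3 among the values of mt-Rnr2. The GC and length correction gave 0.26 for mt-Rnr1, 0.094 for mt-Atp8, 0.11 for mt-Nd5 and 0.18 for mt-Nd6 in 129S1/SvImJ, and -0.031 for mt-Tc in C57BL/6J. With copies added, mt-Co1 had 0.37 in PWD/Ph.

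Of 18 pairs of a female and a male with the same replicate number, 3 had a correlation of deviations over 0.1 (range -0.344 to 0.362), so the numbers do not pair the samples. With a replicate block 10 were called for sex within A/J, and no count moved by over 1.5 times. Low counts limit the transfer RNAs, and several were listed at an FPKM of 0 where counts were present.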
